A study of Mus musculus with 568 samples.

Results

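The genes described here are 9 enzymes that add methyl groups to lysine 9 of histone H3 (H3K9) or remove them. They were taken by name from the bulk RNA-seq table and the single-cell RNA-seq table. No rule on measured values picked them, but earlier results of these data were known when they were chosen. All 9 were found among the 16335 genes of the bulk table and among the 15718 genes of the single-cell table. The methyltransferases were Ehmt1 (also called GLP), Ehmt2 (also called G9a), Setdb1, Suv39h1 and Suv39h2, and the demethylases were Kdm3a, Kdm3b, Kdm4b and Kdm4c.

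All libraries came from XRep, a female mouse embryonic stem cell (ESC) line that is an F2 hybrid between 129S1/SvImJ and CAST/EiJ, so that the X chromosomes, X mus and X cas, can be told apart by their sequence differences. Every group carried the same alterations: a truncated Tsix on X mus, which makes X mus the X chromosome that is inactivated, a GFP reporter (XGFP) in Hprt on X mus, a tdTomato reporter (XTomato) in Hprt on X cas, rtTA in Rosa26, and doxycycline-inducible transgenes for Prdm1 (Blimp1), Prdm14 and Tfap2c. Bulk RNA was measured in 4 groups of 4 libraries: unsorted ESCs grown in 2i and LIF, unsorted epiblast-like cells (EpiLCs) made from them with bFGF and activin A in steps of 48 h, and primordial germ cell-like cells (PGCLCs) after 5 days with doxycycline, sorted as SSEA1+, CD61+ and XTomato+ and then as XGFP+ or XGFP-. XGFP+ PGCLCs have an expressed reporter on both X chromosomes, and in XGFP- PGCLCs the reporter on X mus is silent. For the single-cell libraries, PGCLCs (5000 per the labels, while the study's methods give a higher number) were aggregated with 75000 somatic cells into a reconstituted ovary (rOvary) for 6 days. Per the study's text, these somatic cells came from gonads and mesonephros of female embryos, with CD1/ICR named as the mouse strain, and not from XRep. XTomato+ cells from aggregates with XGFP- PGCLCs were then sorted as XGFPhigh, XGFPintermediate or XGFPlow, and XTomato+ XGFP+ cells from those with XGFP+ PGCLCs as XGFP+ constitutive. Single ESCs (24 cells) and 10 empty wells were also sequenced. Because the line is 1 genetic background with the germ cell factors supplied from transgenes, the groups model PGC development without the usual inducing cytokines.

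Ehmt1 and Ehmt2 form a heterodimer that places mono- and dimethylation on H3K9 in euchromatin, whereas Setdb1 and the related enzymes Suv39h1 and Suv39h2 make trimethylated H3K9, Setdb1 at retroelements and other repressed sequences and the Suv39h enzymes mainly at pericentromeric heterochromatin. Kdm3a and Kdm3b remove mono- and dimethylation, and Kdm4b and Kdm4c act on trimethylated and dimethylated H3K9. In the mouse embryo, dimethylated H3K9 is known to fall across the genome of newly specified and migrating primordial germ cells. H3K9 methylation is also one of the marks found on an inactive X chromosome.

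Suv39h1 is the only member on the X chromosome (X:8061171-8074760, minus strand, mm10, GENCODE vM21). The other members are autosomal, on the same build and annotation. Ehmt1 (2:24789928-24919614) and Suv39h2 (2:3455815-3475031) both lie on the minus strand of chromosome 2, and Ehmt2 (17:34898469-34914052) and Kdm4b (17:56326062-56402870) on the plus strand of chromosome 17. Setdb1 lies at 3:95323525-95357202 on the minus strand, Kdm3a at 6:71588972-71632990 on the minus strand and Kdm4c at 4:74242497-74405860 on the plus strand. The gene identifiers in the bulk table were ENSMUSG00000036893 (Ehmt1), ENSMUSG00000013787 (Ehmt2), ENSMUSG00000015697 (Setdb1), ENSMUSG00000039231 (Suv39h1), ENSMUSG00000026646 (Suv39h2), ENSMUSG00000053470 (Kdm3a), ENSMUSG00000038773 (Kdm3b), ENSMUSG00000024201 (Kdm4b) and ENSMUSG00000028397 (Kdm4c).

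The sequences just before the start sites of 5 members are shown because these genes differed between stages in the results that follow. They are RefSeq windows of 250 bases before an annotated start (GRCm38.p6), cut where an exon of the same gene begins in GENCODE vM21. Windows of 7 of the 9 members were examined. Capitals mark GGGCGG, the box bound by SP and KLF factors, and ACGTG, the core of the hypoxia response element, both searched on both strands. Where 2 copies of ACGTG on opposite strands overlap they make CACGTG, the E box.
Suv39h1, chrX:8074761-8075010, minus strand: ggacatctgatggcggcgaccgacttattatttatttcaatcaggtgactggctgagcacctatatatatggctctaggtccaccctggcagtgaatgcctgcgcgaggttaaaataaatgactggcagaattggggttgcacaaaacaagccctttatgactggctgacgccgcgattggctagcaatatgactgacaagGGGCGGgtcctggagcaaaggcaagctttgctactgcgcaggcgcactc
Suv39h2, chr2:3475032-3475236, minus strand: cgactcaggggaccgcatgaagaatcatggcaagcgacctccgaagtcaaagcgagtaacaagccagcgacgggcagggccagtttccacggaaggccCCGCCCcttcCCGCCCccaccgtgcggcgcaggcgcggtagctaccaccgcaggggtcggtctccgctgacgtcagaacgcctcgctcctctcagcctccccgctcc
Ehmt1, chr2:24919615-24919859, minus strand: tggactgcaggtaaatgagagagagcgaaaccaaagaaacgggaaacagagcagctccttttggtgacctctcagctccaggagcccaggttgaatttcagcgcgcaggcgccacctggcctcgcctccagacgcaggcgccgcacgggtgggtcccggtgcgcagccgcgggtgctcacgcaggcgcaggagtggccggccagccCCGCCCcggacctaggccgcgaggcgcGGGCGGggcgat
Kdm3a, chr6:71632991-71633167, minus strand: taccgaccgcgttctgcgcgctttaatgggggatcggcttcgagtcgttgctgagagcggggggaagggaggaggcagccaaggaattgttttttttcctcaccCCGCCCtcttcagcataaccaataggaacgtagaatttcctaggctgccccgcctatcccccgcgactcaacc
Kdm4c, chr4:74251629-74251878, plus strand: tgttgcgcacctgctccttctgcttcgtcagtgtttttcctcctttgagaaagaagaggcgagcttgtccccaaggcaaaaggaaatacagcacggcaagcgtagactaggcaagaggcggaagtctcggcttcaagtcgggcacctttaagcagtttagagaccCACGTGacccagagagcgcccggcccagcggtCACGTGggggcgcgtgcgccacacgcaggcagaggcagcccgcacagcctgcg

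Over the whole 250 bases, the Suv39h1 window had 11 CpG dinucleotides and 51.6% G and C, against a median of 6 CpG dinucleotides and 52.4% over the 32851 windows of the table. The Suv39h2 window had 27 CpG dinucleotides and 69.6% G and C, and that of Ehmt1 had 26 and 69.2%. GGGCGG was found 1 time in the Suv39h1 window, 3 times in that of Suv39h2 and 2 times each in those of Ehmt1 and Kdm3a, counted over all 250 bases, and it occurs in 32.7% of all windows. The Kdm4c window held no GGGCGG but had CACGTG 2 times, a motif found in 6.02% of all windows, while ACGTG in any context is found in 16.6%. The windows of Ehmt2, which are not printed, also had CACGTG, 2 times and 1 time. Kdm4c has a further RefSeq start upstream, whose window had 0 CpG dinucleotides. Suv39h1 has a further start too, whose window overlapped an exon of the gene and had 25 CpG dinucleotides and 67.2% G and C. Further windows of Kdm3a had 31 CpG dinucleotides with 72.8% G and C, and 0 with 48.4%. ACGTG was not in the printed Kdm3a window, although Kdm3a is a known target of hypoxia-inducible factors. The E2F sites TTTCGCGC and TTTGGCGC, in 0.256% and 0.417% of all windows, were in none of the members' windows that were examined.

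Bulk values are normalized counts, read counts divided by a size factor of each library. The libraries held 29.8 M to 46.5 M reads on genes, and each gene was tested with limma on log2(normalized count + 1), a difference being called at a false discovery rate (FDR) below 0.001. The libraries of a group carry the numbers 1 to 4, with nothing in the labels about separate cultures, and the study's text describes a pair of clones per group with a pair of technical replicates each. Which libraries share a clone is not in the labels, so all p-values treat technical repeats as replicates and may be too small. The stage markers followed the labels: the summed normalized count of 6 naive ESC genes was 157419 to 175428 in ESCs and 6219 to 10570 in EpiLCs, and 53623 to 62983 in XGFP+ and 34167 to 41053 in XGFP- PGCLCs. That of 5 EpiLC genes was 59366 to 70365 in EpiLCs and at most 5623 elsewhere. For 7 PGCLC genes, some of them supplied as transgenes or used in the sort, the sum was at most 9511 outside PGCLCs. It was 25436 to 26571 in XGFP+ and 27083 to 29034 in XGFP- PGCLCs. The somatic gonad genes in the table (5 of 9) summed to 44.3 to 499 over the 16 libraries. The sum of the rOvary germ cell markers in the table (5 of 6) was 13832 to 19178 in XGFP+ and 4862 to 7314 in XGFP- PGCLCs. That of mesoderm and endothelium markers (4 of 5) was 73.8 to 93.1 and 164 to 250.1. Most of the latter rise came from Cdh5, with means of 48.8 in XGFP+ and 194 in XGFP- PGCLCs. T was at 3.00 and 9.05, while Mixl1 (14.1 and 3.96) and Kdr (16.3 and 4.92) were lower in XGFP- PGCLCs. Only 1 of these 4 genes was called different. In all XGFP- PGCLC libraries, the naive and rOvary germ cell sums were thus lower than in XGFP+ PGCLCs. The PGCLC sum and the mesoderm and endothelium sum were higher. The part of these differences in those of the members was not tested. In bulk libraries, fewer cells of a type and less RNA per cell cannot be told apart.

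Per kilobase of exon, Setdb1 had the highest mean normalized count of the methyltransferases in every group, 953 to 1167 per kb, and Suv39h1 the lowest in ESCs, 252 per kb. Among the demethylases, Kdm3a led in ESCs with 1247 per kb and Kdm4c in EpiLCs with 1123 per kb, and Kdm4b was lowest in ESCs and in both PGCLC groups at 225 to 274 per kb. In EpiLCs, Kdm3b at 217 and Kdm4b at 221 per kb were the lowest of the demethylases. The members differed widely in how much they varied between stages. The highest group mean was 3.57 times the lowest for Suv39h1, 3.25 times for Kdm3a and 3.02 times for Kdm3b, 1.87 times for Ehmt1, 1.79 times for Kdm4c and 1.58 times for Suv39h2, whereas for Ehmt2, Kdm4b and Setdb1 it was 1.27, 1.24 and 1.23 times.

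**Figure D1:**
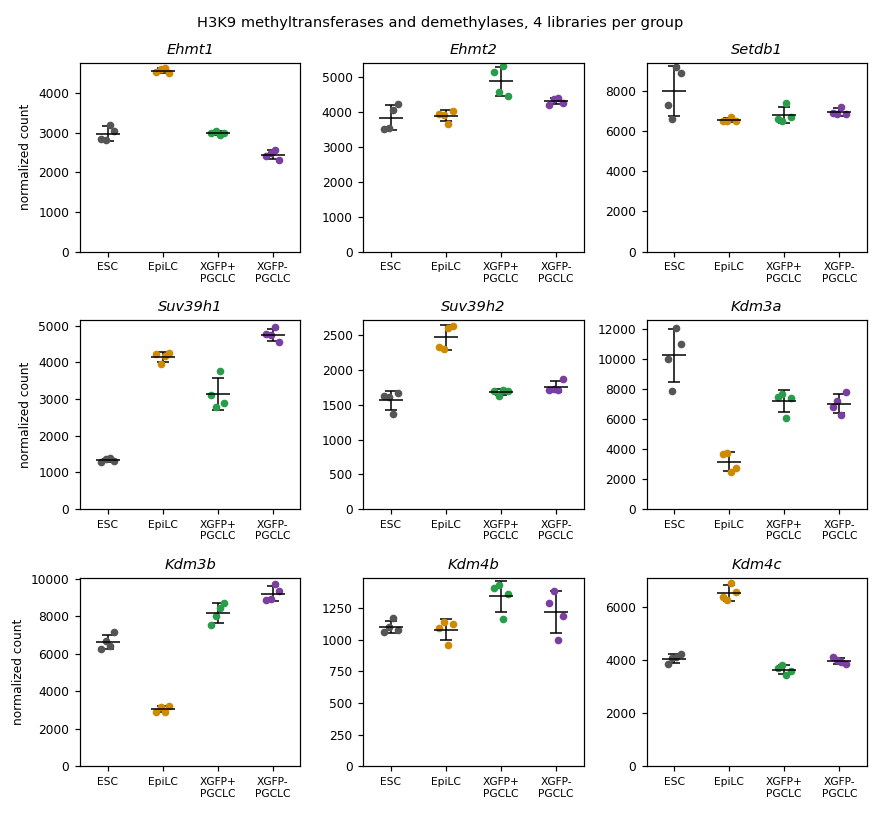
Normalized count (linear axis starting at 0) of each of the 9 members in each of the 16 bulk libraries, with points for libraries and lines for the group mean and SD. Suv39h1 is lowest in all 4 ESC libraries, Kdm3a and Kdm3b are lowest in all 4 EpiLC libraries, and Ehmt1, Suv39h2 and Kdm4c are highest in all 4 EpiLC libraries.

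From ESCs to EpiLCs, 6 of the 9 members changed, 4 upward and 2 downward, while 47.8% of all 16281 genes tested were called (24.9% upward and 22.9% downward). Suv39h1, Kdm4c, Suv39h2 and Ehmt1 rose and Kdm3a and Kdm3b fell. The median absolute log2 fold change was 0.66 over the members and 0.48 over all genes, and the libraries of both groups did not overlap for 6 members, against 60.7% of all genes. From EpiLCs to XGFP+ PGCLCs, 7 members were called, 3 upward and 4 downward (57.3% of all genes, 27.8% upward and 29.5% downward), and from EpiLCs to XGFP- PGCLCs 5 members, 2 upward and 3 downward (61.9% of all genes, 29.9% upward and 31.9% downward). In each of these comparisons the libraries did not overlap for 8 members, against 69.9% and 73.5% of all genes, and the median absolute log2 fold changes of the members were 0.55 and 0.49, against 0.63 and 0.71 over all genes. The comparisons share their EpiLC libraries.

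Between ESCs and PGCLCs fewer members differed. In XGFP+ PGCLCs against ESCs, 3 members were called, all upward (49.9% of all genes, 25% upward and 24.9% downward), and in XGFP- PGCLCs against ESCs 3 members, 2 upward and 1 downward (59.4% of all genes, 29.8% upward and 29.6% downward). The libraries did not overlap for 5 members in each, against 62.4% and 70.7% of all genes, and the median absolute log2 fold changes of the members were 0.28 and 0.19, against 0.52 and 0.67 over all genes. These comparisons share their ESC libraries. The count in XGFP+ PGCLCs ranged from 1 without ESC replicate 1 to 5 without ESC replicate 2, and was 1 when these groups were fitted alone. Between XGFP- and XGFP+ PGCLCs, 2 members were called, Suv39h1 upward and Ehmt1 downward, beside 23.8% of all genes (11.3% upward and 12.5% downward), and the libraries did not overlap for 6 members, beside 45.7%. The median absolute log2 fold change there was 0.15 over the members and 0.29 over all genes.

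**Figure D2:**
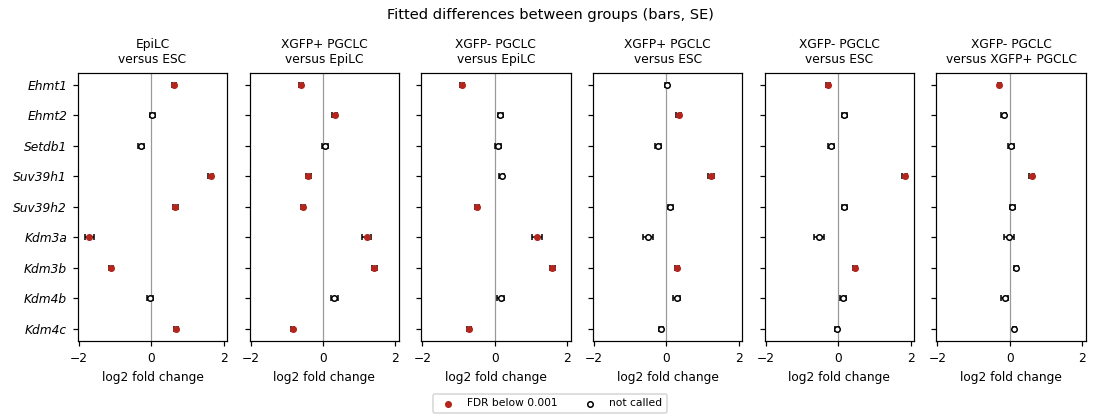
Log2 fold change of each member (points) with its standard error (lines) in the 6 comparisons between bulk groups, filled where the FDR was below 0.001. In EpiLCs against ESCs the changes run from -1.71 for Kdm3a to 1.64 for Suv39h1, and between the PGCLC groups all lie between -0.29 and 0.61.

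Suv39h1 had the largest ratio of highest to lowest group mean among the members, and its values were lowest in ESCs. Its normalized counts were 1290, 1356, 1377 and 1296 in ESCs and 4212, 3948, 4173 and 4241 in EpiLCs. They were 3108, 2785, 3769 and 2897 in XGFP+ PGCLCs and 4764, 4740, 4954 and 4543 in XGFP- PGCLCs. No 2 groups overlapped, and the order from low to high was ESC, XGFP+ PGCLC, EpiLC and XGFP- PGCLC. Suv39h1 rose 3.12-fold from ESCs to EpiLCs (log2 fold change 1.64 ± 0.07, SE, FDR 5.78e-13). From EpiLCs it fell in XGFP+ PGCLCs (log2 fold change -0.41 ± 0.07, FDR 4.87e-05), and in XGFP- PGCLCs its level was not called different (0.20 ± 0.07, FDR 0.0186). Suv39h1 was 1.51-fold higher in XGFP- than in XGFP+ PGCLCs (log2 fold change 0.61 ± 0.07, FDR 1.89e-06). Against ESCs, both PGCLC groups were higher, with log2 fold changes of 1.23 (FDR 4.08e-11) in XGFP+ and 1.84 (FDR 7.36e-14) in XGFP- PGCLCs.

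Suv39h2, the paralogue of Suv39h1 known for its high expression in testis, was highest in EpiLCs. Normalized counts of Suv39h2 were 1624, 1613, 1367 and 1666 in ESCs and 2333, 2307, 2612 and 2642 in EpiLCs. They were 1700, 1621, 1710 and 1705 in XGFP+ PGCLCs and 1720.2, 1734, 1713 and 1878 in XGFP- PGCLCs. All EpiLC libraries lay above all others, and the values of ESCs and XGFP+ PGCLCs overlapped. Suv39h2 rose from ESCs to EpiLCs (log2 fold change 0.66 ± 0.07, SE, FDR 6.79e-08) and fell from EpiLCs to XGFP+ (-0.55 ± 0.07, FDR 5.43e-07) and XGFP- PGCLCs (-0.49 ± 0.07, FDR 2.26e-06). No difference was called between the PGCLC groups (0.06, FDR 0.454) or between either of them and ESCs (0.11 and 0.17). Between stages Suv39h2 and Suv39h1 thus had different orders: the PGCLC levels of Suv39h2 were near those of ESCs, and those of Suv39h1 were more than 2-fold those of ESCs.

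Ehmt1 was also highest in EpiLCs and was lowest in XGFP- PGCLCs. The normalized counts of Ehmt1 were 2839, 2800.3, 3195 and 3048 in ESCs and 4535, 4590.4, 4635 and 4489 in EpiLCs. They were 2979, 3050.2, 2938 and 2977 in XGFP+ PGCLCs and 2413, 2492, 2560.3 and 2313 in XGFP- PGCLCs. Only the ESC and XGFP+ PGCLC libraries overlapped. Ehmt1 rose from ESCs to EpiLCs (log2 fold change 0.62 ± 0.05, SE, FDR 2.92e-09) and fell from EpiLCs to XGFP+ (-0.61 ± 0.05, FDR 2.79e-09) and XGFP- PGCLCs (-0.90 ± 0.05, FDR 8.74e-12). It was lower in XGFP- than in XGFP+ PGCLCs (-0.29 ± 0.05, FDR 0.000118) and than in ESCs (-0.28, FDR 5.62e-05), the latter call being lost when these groups were fitted alone (FDR 0.00105). Against ESCs, XGFP+ PGCLCs had a log2 fold change of 0.01 (FDR 0.877).

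Ehmt2, the partner of Ehmt1, did not follow it. Ehmt2 had normalized counts of 3514, 3555, 4070.3 and 4249 in ESCs, 3964, 3916, 3669 and 4046 in EpiLCs and 4219, 4395, 4399 and 4266 in XGFP- PGCLCs. They were 5167, 4596, 5322 and 4468 in XGFP+ PGCLCs, above every library of the other groups. Ehmt2 was called higher in XGFP+ PGCLCs than in EpiLCs (log2 fold change 0.32 ± 0.07, SE, FDR 0.000305) and than in ESCs (0.35 ± 0.07, FDR 0.000179). Both calls were weak: the call against EpiLCs was lost without XGFP+ replicate 1, XGFP+ replicate 3 or EpiLC replicate 3 (FDR 0.00161 to 0.00168), and the call against ESCs was lost without ESC replicate 1 (FDR 0.00108) or XGFP+ replicate 3 (FDR 0.001003) and when these groups were fitted alone (FDR 0.00251). Its other comparisons had absolute log2 fold changes of at most 0.17 and were not called.

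Setdb1 passed the test in none of the 6 comparisons. Its normalized counts ran from 6617 to 9170.1 in ESCs, with replicates 3 and 4 (9170.1 and 8904) above replicates 1 and 2 (7306 and 6617). Those of EpiLCs ran from 6471 to 6680, those of XGFP+ PGCLCs from 6508 to 7369 and those of XGFP- PGCLCs from 6849 to 7213. The largest of its log2 fold changes was -0.28 ± 0.08 (SE, FDR 0.0044) in EpiLCs against ESCs, which was called without ESC replicate 2, as was the difference between XGFP+ PGCLCs and ESCs.

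Kdm3a, which removes mono- and dimethylation from H3K9 and is needed for spermatogenesis, was lowest in EpiLCs. Kdm3a had normalized counts of 10013, 7900.0, 12108 and 11013 in ESCs and 3680.0, 3724, 2493 and 2710 in EpiLCs. They were 7498, 7702, 6089 and 7421 in XGFP+ PGCLCs and 6832, 7190.3, 6300 and 7831 in XGFP- PGCLCs. All EpiLC libraries were below all others, all ESC libraries were above all others, and the values of the PGCLC groups overlapped. Kdm3a fell 3.25-fold from ESCs to EpiLCs (log2 fold change -1.71 ± 0.13, SE, FDR 2.01e-09) and rose from EpiLCs to XGFP+ (1.20 ± 0.13, FDR 1.87e-07) and XGFP- PGCLCs (1.18 ± 0.13, FDR 2.10e-07). Against ESCs, the values of -0.50 in XGFP+ (FDR 0.00276) and -0.53 in XGFP- PGCLCs (FDR 0.00157) were not called, although DESeq2 called both, as did limma without ESC replicate 2 and, for XGFP- PGCLCs, without EpiLC replicate 3.

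Kdm3b, the closest relative of Kdm3a among the members, was lowest in EpiLCs too but highest in PGCLCs. For Kdm3b, the normalized counts were 6273, 6714, 6441 and 7153 in ESCs and 2908, 3189, 2888 and 3226 in EpiLCs. They were 7529, 8022, 8472 and 8690.2 in XGFP+ PGCLCs and 8884, 8952, 9714 and 9335 in XGFP- PGCLCs. No 2 groups overlapped. Kdm3b fell 2.18-fold from ESCs to EpiLCs (log2 fold change -1.12 ± 0.06, SE, FDR 6.04e-12) and rose from EpiLCs to XGFP+ (1.42 ± 0.06, FDR 2.37e-13) and XGFP- PGCLCs (1.60 ± 0.06, FDR 3.23e-14). It was higher than in ESCs by 0.30 on the log2 scale in XGFP+ (FDR 0.000181) and by 0.47 in XGFP- PGCLCs (FDR 6.66e-07). The former call was lost without ESC replicate 1 (FDR 0.00106) and when these groups were fitted alone (FDR 0.00130), and the difference between the PGCLC groups, 0.17, was not called (FDR 0.0201).

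Kdm4c, a demethylase of trimethylated H3K9, had the opposite pattern to Kdm3a and Kdm3b at the EpiLC stage. Its normalized counts were 3850.3, 4094, 4108 and 4224 in ESCs and 6381, 6264, 6938 and 6584 in EpiLCs. They were 3729, 3841, 3438 and 3610.3 in XGFP+ PGCLCs and 4132, 4022, 3938 and 3846 in XGFP- PGCLCs. All EpiLC libraries lay above all others, and the 3 other groups spanned 3438 to 4224. Kdm4c rose from ESCs to EpiLCs (log2 fold change 0.68 ± 0.05, SE, FDR 7.13e-10) and fell from EpiLCs to XGFP+ (-0.84 ± 0.05, FDR 3.15e-11) and XGFP- PGCLCs (-0.71 ± 0.05, FDR 2.25e-10). Kdm4b, the other member of that family, was called in none of the comparisons. Its normalized counts ran from 1059 to 1168 in ESCs, from 960 to 1140.2 in EpiLCs, from 1166 to 1436 in XGFP+ and from 999 to 1385 in XGFP- PGCLCs, and its largest log2 fold change was 0.31 ± 0.09 (SE, FDR 0.0050) in XGFP+ PGCLCs against EpiLCs.

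From ESCs to EpiLCs, then, 3 of 5 methyltransferases (Suv39h1, Suv39h2 and Ehmt1) and 1 of 4 demethylases (Kdm4c) rose, and 2 of 4 demethylases (Kdm3a and Kdm3b) fell. Of all genes, 24.9% rose and 22.9% fell. With so few members, nothing particular to either class of enzyme is read from these counts. Over the 16 libraries, which are 4 groups of 4 and hence not 16 independent points, Pearson's r of log2(normalized count + 1) was -0.956 between Ehmt1 and Kdm3b, -0.952 between Suv39h2 and Kdm3a and -0.949 between Kdm3b and Kdm4c. It was 0.890 between Suv39h2 and Kdm4c, 0.887 between Ehmt1 and Kdm4c and 0.774 between Kdm3a and Kdm3b.

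For each member, the genes of most similar pattern among all those tested were taken by the same r over the 16 libraries. Suv39h1 was most like Pkdcc (0.994) and Efs (0.993), Ehmt1 like Arhgef26 (0.992) and Fam102b (0.989), and Kdm4c like Sema6a (0.991) and Wipf3 (0.987). Kdm3b was most like Itgb3 (0.994) and Pik3c2b (0.993). Itgb3 encodes CD61, a protein on which the PGCLCs were sorted, and its mean normalized counts were 470 (ESC), 15.4 (EpiLC), 1103 (XGFP+ PGCLC) and 1794 (XGFP- PGCLC). Kdm3a was most like Ntn1 and Mobp (both 0.972) and Suv39h2 like Ripk4 and Usp47 (both 0.971). The members that varied least between stages had weaker neighbours: Lrpprc (0.946) and Sharpin (0.929) for Ehmt2, Cnot11 (0.927) and Skida1 (0.875) for Setdb1, and Gm16439 and mt-Nd5 (both 0.823) for Kdm4b. Over libraries that form groups, the highest r depends on how far apart the groups lie. This contrast is therefore not read as a property of these members.

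The rest of the H3K9 pathway was read from 4 lists with 27 genes, all of which were tested. From ESCs to EpiLCs, 6 of the 27 rose and 9 fell, beside 24.9% and 22.9% of all genes. From EpiLCs, 11 rose and 9 fell in XGFP+ PGCLCs (27.8% and 29.5% of all genes), and 9 rose and 9 fell in XGFP- PGCLCs (29.9% and 31.9%). Against ESCs, 7 were higher and 6 lower in XGFP+ PGCLCs (25% and 24.9%), and 9 higher and 7 lower in XGFP- PGCLCs (29.8% and 29.6%). Between the PGCLC groups, 1 of the 27 was higher and 7 were lower in XGFP- cells, beside 11.3% and 12.5% of all genes. The median absolute log2 fold change of the 27 genes was 0.36 from ESCs to EpiLCs (0.48 over all genes) and 0.21 between the PGCLC groups (0.29 over all genes). The counts of the single lists, of 4 to 8 genes each, stand beside the same shares of all genes, and nothing particular to a list is read from them.

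Of the other 4 methyltransferases, 3 fell from ESCs to EpiLCs (22.9% of all genes did) and none rose: Prdm16, a regulator of brown fat and haematopoietic stem cells (log2 fold change -1.79, FDR 2.10e-08), Setdb2, a relative of Setdb1 (-0.49, FDR 3.75e-06), and Prdm2, also known as RIZ (-0.35, FDR 8.88e-06). Prdm16 was also the only gene of this list that differed between the PGCLC groups, with mean normalized counts of 232 ± 24.6 (SD, n = 4) in XGFP+ and 66.7 ± 17.7 in XGFP- PGCLCs (log2 fold change -1.82, FDR 8.55e-08). Its level in XGFP+ PGCLCs was near that of ESCs (205 ± 14.9) and that in XGFP- PGCLCs near that of EpiLCs (58.7 ± 5.02).

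Of the other 8 demethylases, 1 rose and 2 fell from ESCs to EpiLCs. Jmjd1c, the third member of the Kdm3 family, rose (log2 fold change 1.32, FDR 1.03e-07), in the opposite direction to Kdm3a and Kdm3b, while Kdm4a (-0.52, FDR 2.23e-06) and Kdm1a, also known as LSD1 (-0.36, FDR 7.90e-06), fell. Between the PGCLC groups, 2 of the 8 fell and none rose in XGFP- cells. Hr, the Hairless gene, had mean normalized counts of 873 ± 79.6 (SD, n = 4) in XGFP+ and 361 ± 27.9 in XGFP- PGCLCs (log2 fold change -1.27, FDR 1.35e-06), and Phf8, an X-linked demethylase, 1701 ± 81.9 and 963 ± 28.9 (-0.82, FDR 1.53e-07).

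Of the 7 readers of methylated H3K9, 1 rose and 3 fell from ESCs to EpiLCs. Cdyl2, a chromodomain protein, fell (log2 fold change -3.29, FDR 1.35e-12), as did Uhrf1, which recruits the maintenance DNA methyltransferase (-0.80, FDR 2.25e-07), while Cbx5, which encodes the heterochromatin protein HP1 alpha, rose (0.30, FDR 9.39e-06). Between the PGCLC groups, 2 of the 7 fell and none rose in XGFP- cells: Cdyl2 had means of 5501 ± 737 (SD, n = 4) in XGFP+ and 1786 ± 469 in XGFP- PGCLCs (-1.65, FDR 1.12e-07), and Uhrf1 3368 ± 440.0 and 1850 ± 236 (-0.86, FDR 3.17e-07). Uhrf1 was lower at each later stage, from 22403 ± 1054 in ESCs and 12897 ± 540.3 in EpiLCs.

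Of the 8 cofactors of the methyltransferases, 4 rose and 1 fell from ESCs to EpiLCs. Pphln1, a subunit of the HUSH silencing complex, rose (log2 fold change 2.16, FDR 2.48e-12), as did Zfp644, a zinc finger partner of Ehmt1 and Ehmt2 (0.99, FDR 4.20e-11), and Atf7ip, a partner of Setdb1 (0.68, FDR 3.71e-06). Between the PGCLC groups, 1 rose and 2 fell in XGFP- cells: Zfp644 rose (0.47, FDR 4.06e-06), and Morc2a, which acts with HUSH (-0.45, FDR 2.67e-06), and Atf7ip (-0.44, FDR 0.000785) fell. The call of Atf7ip was lost on leaving out any of 11 of the 16 libraries (FDR up to 0.00383).

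Because Suv39h1 lies on the X chromosome, its reads could be assigned to X mus or X cas. The deposited allelic ratio is the share of assigned reads that came from X mus, and no read numbers came with it, so its depth is unknown. The ratios of Suv39h1 were 0.644, 0.574, 0.584 and 0.608 in ESCs and 0.486, 0.430, 0.432 and 0.445 in EpiLCs. They were 0.574, 0.471, 0.507 and 0.549 in XGFP+ PGCLCs and 0.396, 0.461, 0.464 and 0.469 in XGFP- PGCLCs. The XGFP- PGCLC libraries lay within the range of EpiLCs except for the lowest, which was below it. For comparison, the median ratio of the 232 X-linked genes that were biallelic in ESCs (a mean ratio of 0.3 to 0.7) was 0.474 in ESCs, 0.230 in EpiLCs, 0.401 in XGFP+ PGCLCs and 0.0292 in XGFP- PGCLCs. Suv39h1 had a mean ratio of 0.447 ± 0.035 (SD, n = 4) in XGFP- PGCLCs, and 12 of the 232 genes were higher. In EpiLCs its mean was 0.448 ± 0.026 with 16 genes higher, in XGFP+ PGCLCs 0.525 ± 0.046 with 23 higher, and in ESCs 0.602 ± 0.031 with 13 higher. The mean ratio of Phf8, the X-linked gene of the demethylase list, went from 0.436 in ESCs to 0.259 in EpiLCs, and was 0.337 in the XGFP+ and 0.0119 in the XGFP- PGCLCs.

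Against ESCs, the Suv39h1 ratio differed by -0.154 for EpiLCs, by -0.0773 for XGFP+ PGCLCs and by -0.155 for XGFP- PGCLCs. In each the two-sided exact permutation test over 4 against 4 libraries gave its smallest possible p of 0.0286 (0.0429 adjusted over 6 pairs of groups). The exchanges count technical repeats of a clone as replicates, so these p-values may be too small, and the nearest libraries of ESCs and XGFP+ PGCLCs were both at 0.574 when rounded. XGFP- PGCLCs differed from XGFP+ PGCLCs by -0.0777 (exact p = 0.0286, adjusted 0.0429). When same-numbered libraries were paired, which the data bear out for the PGCLC groups, exact sign flips of the 4 pairs gave an adjusted p of 0.15 for that difference and could not have given less than 0.125 unadjusted. XGFP- PGCLCs and EpiLCs differed by -0.000729 (exact p = 0.971), and XGFP+ PGCLCs and EpiLCs by 0.0769 (exact p = 0.0571, adjusted 0.0686). When each library's ratio was taken relative to the median of the 232 genes in that library, the direction turned: relative to those genes the ratio was higher by 0.0964 in EpiLCs and by 0.294 in XGFP- PGCLCs than in ESCs, and by 0.299 in XGFP- than in XGFP+ PGCLCs (adjusted exact permutation p = 0.0343 each). This step subtracts the change of the other X-linked genes. Their median was 0.401 in XGFP+ and 0.0292 in XGFP- PGCLCs, groups sorted by whether a reporter on X mus was silent. The sign of the differences of XGFP- PGCLCs thus largely follows from the sort, and no conclusion is drawn from their p-values.

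Splitting each library's normalized count of Suv39h1 by its ratio gave an X mus part of 800.2 ± 22.5 (SD, n = 4) for ESCs and 1858 ± 148 for EpiLCs, and of 1649 ± 261 for XGFP+ and 2125 ± 175 for XGFP- PGCLCs. The part from X cas was 530 ± 56.4, 2285 ± 96.7, 1491 ± 256 and 2625 ± 196 in the same order. Both parts were thus above those of ESCs in every later group. The total of Phf8, by contrast, went from 2251 in ESCs to 963 in XGFP- PGCLCs.

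**Figure D3:**
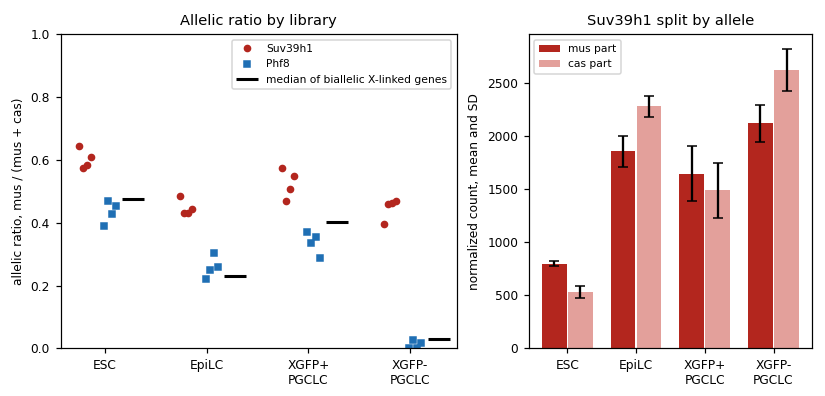
Left, allelic ratio (share of assigned reads from X mus) of Suv39h1 and Phf8 in the 16 bulk libraries (points), with the median of 232 X-linked genes per group (lines). Right, the Suv39h1 normalized count split between X mus and X cas (bars are means, error bars SD). The Suv39h1 ratio stays between 0.396 and 0.469 in XGFP- PGCLCs, where the median X-linked gene is at 0.0292.

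In the rOvary, each sorted population was 1 sample, so differences between populations have no replicate check and no test was made. Of 518 rOvary wells, 462 cells passed the filters on genes, reads and mitochondrial reads: 93.6% of the XGFP+ constitutive, 86.8% of the XGFPhigh, 88.9% of the XGFPintermediate and 88.97% of the XGFPlow wells, with medians of 354149, 636623, 645474 and 640902 reads per cell. Levels are reads summed over the cells of a population and scaled to all its reads (CPM), with exact Poisson intervals (95%) that cover counting error only, since reads carried no molecular identifiers. The 10 empty wells held no read of any member. The populations were not spread evenly over sequencing lanes: 1 lane held all 88 XGFP+ constitutive cells with 14, 16 and 15 cells of the XGFPhigh, XGFPintermediate and XGFPlow populations, 28.8% of the cells kept, and another held all remaining rOvary cells. All well index numbers of the former lane (100%) were also used in the other.

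The labels call all 4 rOvary populations germ cells, and the 6 germ cell markers summed to more than in single ESCs in each of them. Dazl, a germ cell RNA-binding protein, was above 1 (natural log of reads per 10000 plus 1) in 86.4% of the XGFP+ constitutive, 94.4% of the XGFPhigh, 90.6% of the XGFPintermediate and 75.2% of the XGFPlow cells kept, so that cells without it were also among those summed. The summed CPM of 6 germ cell markers was 4191 in XGFP+ constitutive, 4159 in XGFPhigh, 7931 in XGFPintermediate and 5987 in XGFPlow cells, against 143.7 in single ESCs. That of 9 gonadal somatic markers was 7.82 and 7.29 in XGFP+ constitutive and XGFPhigh cells, with 6 and 7 of the 9 below 1 CPM, but 396 in XGFPintermediate and 82.7 in XGFPlow cells, with 3 and 2 below 1 CPM. The part of these somatic reads in the differences of the members was not tested. With the cells past the Dazl limit alone, 6 members each differed by over 1.5-fold between XGFPhigh and XGFPlow (31.2% of all genes) and between XGFPhigh and XGFPintermediate cells (36.9%), and 0 between XGFPhigh and XGFP+ constitutive cells (10.2%).

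XGFP+ constitutive and XGFPhigh cells, which differ in whether the GFP on X mus had been silent in the PGCLCs, were mostly in different lanes. With all cells, 0 of the 9 members differed by over 1.5-fold between them, beside 10.7% of the 8716 genes with a mean above 10 CPM over the populations. Within the lane that held both, 7 of the 9 did, all lower in XGFPhigh cells, beside 48.4% of all genes (39% lower and 9.39% higher), and the median log2 ratio over all genes was -0.36. Against XGFPlow cells, 4 of the 9 members differed by over 1.5-fold in XGFPhigh cells, 3 lower and 1 higher (30.3% of all genes, 21.7% lower and 8.56% higher). Against XGFPintermediate cells, 5 differed, 4 lower and 1 higher (35.7% of all genes, 25% lower and 10.7% higher). The median log2 ratio over all genes was -0.19 and -0.20 in these comparisons, and they share the XGFPhigh cells.

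Suv39h1 was lower in XGFPhigh than in XGFPintermediate and XGFPlow cells. It was at 80.3 CPM (77.2 to 83.4) in XGFP+ constitutive, 95.7 (93.6 to 97.8) in XGFPhigh, 229 (225 to 232) in XGFPintermediate and 158 (155 to 161) in XGFPlow cells, and at 13.1 (11.7 to 14.5) in single ESCs. It was thus 2.39-fold lower in XGFPhigh than in XGFPintermediate and 1.65-fold lower than in XGFPlow cells. Setdb1 was at 46.7, 56.1, 111.1 and 64.96 CPM in the same order, 1.98-fold lower in XGFPhigh than in XGFPintermediate cells. In XGFPintermediate cells, 1 cell reached 1238 CPM of Setdb1, against a median of 62.2. Ehmt2 was at 17.7, 19.4, 33.3 and 41.3 CPM, 2.13-fold lower in XGFPhigh than in XGFPlow cells. Ehmt1 (47.5 to 56.4 CPM) and Suv39h2 (28.7 to 60.1 CPM) differed by less than 1.5-fold in each of these 3 comparisons.

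Kdm3a and Kdm4c went the other way. Kdm3a was at 106.7 CPM (103.1 to 110.3) in XGFP+ constitutive, 90.99 (88.9 to 93.1) in XGFPhigh, 51.9 (50.4 to 53.5) in XGFPintermediate and 66.98 (65.2 to 68.8) in XGFPlow cells, and at 178 (173 to 183) in single ESCs. It was 1.75-fold higher in XGFPhigh than in XGFPintermediate cells. Kdm4c was at 48.0, 44.2, 31.1 and 29.1 CPM, 1.52-fold higher in XGFPhigh than in XGFPlow cells. Fewer XGFPintermediate and XGFPlow cells had a read of these genes: at 100000 reads per cell, 92.05%, 93.6%, 67.97% and 66.9% of the cells had a read of Kdm3a, and 88.6%, 80%, 60.2% and 48.8% had a read of Kdm4c. Without that thinning the shares were 95.5%, 96%, 74.2% and 73.6% for Kdm3a and 92.05%, 90.4%, 68.8% and 58.7% for Kdm4c. Kdm3b (27.3 to 45.6 CPM) was 1.67-fold lower in XGFPhigh than in XGFPintermediate cells, and Kdm4b (9.45 to 22.7 CPM) was 1.90-fold lower in XGFPhigh than in XGFPlow cells.

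In the lane that held all 4 populations, these differences were not all kept. There Suv39h1 was at 80.3, 52.3, 78.4 and 109.2 CPM, so that XGFPhigh remained the lowest of the cells derived from XGFP- PGCLCs. The XGFPintermediate cells were no longer the highest, being below XGFPlow cells and near XGFP+ constitutive cells. Ehmt2 was at 11.5, 11.8 and 21.4 and Setdb1 at 12.96, 34.7 and 59.7 CPM in XGFPhigh, XGFPintermediate and XGFPlow cells. Kdm3a, at 46.7, 47.6 and 31.6 CPM, no longer differed between XGFPhigh and XGFPintermediate cells, and Kdm4c, at 25.6, 33.5 and 34.2 CPM, turned around. Between XGFPhigh and XGFPlow cells 6 members were past 1.5-fold in that lane, all lower in XGFPhigh cells, beside 47.5% of all genes (30.9% lower), and between XGFPhigh and XGFPintermediate cells 3, all lower, beside 44.2% (27.8% lower). These values rest on 14 to 16 cells each of the XGFPhigh, XGFPintermediate and XGFPlow populations, and on 88 XGFP+ constitutive cells.

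**Figure D4:**
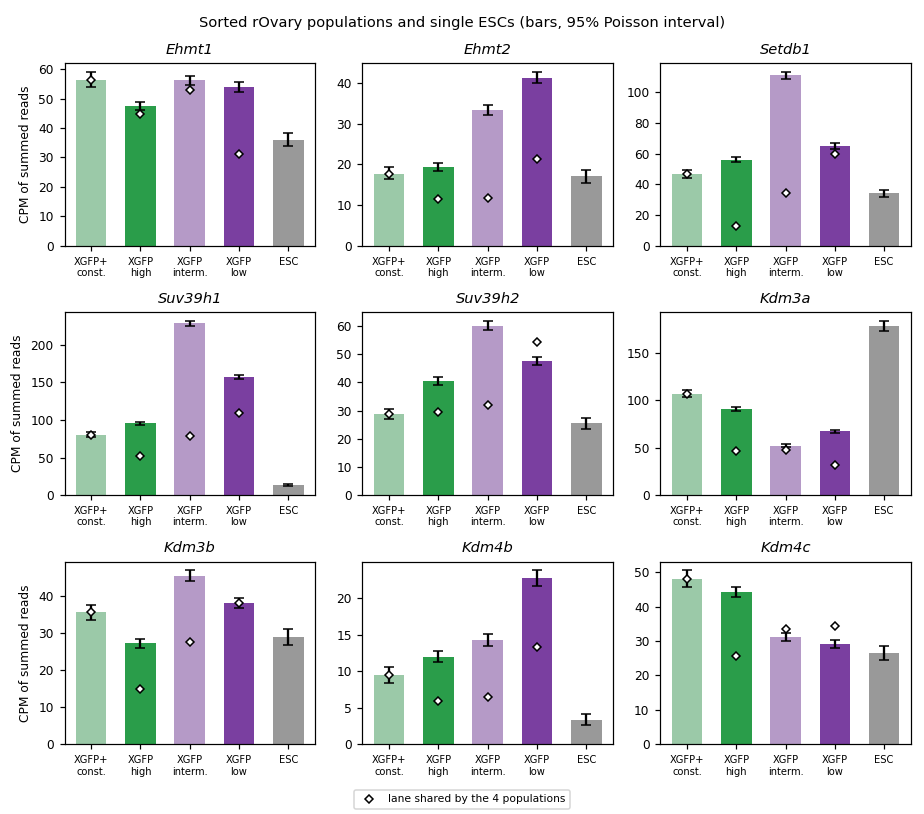
CPM of each member, from reads summed over the cells of each sorted rOvary population and of single ESCs, with exact Poisson intervals (95%) for counting error only and diamonds for the cells of the lane that held all 4 rOvary populations. With all cells, Suv39h1 is highest in XGFPintermediate cells at 229 CPM, but in the shared lane it is at 78.4 CPM there and at 109.2 in XGFPlow cells. Kdm3a is highest in single ESCs at 178 CPM.

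The X mus allele of Suv39h1 was read in most rOvary cells in which a ratio could be had, also in cells sorted for low XGFP. Reads of both alleles were found in 17 of 24 XGFP+ constitutive cells (70.8%, exact interval 48.9 to 87.4), 54 of 61 XGFPhigh cells (88.5%, 77.8 to 95.3), 84 of 95 XGFPintermediate cells (88.4%, 80.2 to 94.1) and 61 of 68 XGFPlow cells (89.7%, 79.9 to 95.8). The mean ratio was 0.492, 0.582, 0.455 and 0.413 in this order, and the median over 219 X-linked genes of their mean ratios was 0.476, 0.471, 0.356 and 0.254. In XGFPlow cells, 38 of the 219 genes had a higher mean ratio than Suv39h1. Phf8 had reads of both alleles in 42.9%, 58.5%, 55.6% and 30% of the cells with a ratio, which numbered 14, 41, 54 and 20. Its mean ratio was 0.373, 0.465, 0.392 and 0.410 in the same order. In XGFPlow cells the mean ratio of Phf8 was thus near that of Suv39h1, with 41 of the 219 genes higher. The share of cells with both alleles also depends on reads per cell, which were not given with the ratios.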

How the data were processed

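RNA was measured in 16 bulk libraries and 552 single wells. The authors aligned reads with STAR to mm10 with strain SNPs masked, counted them with HTSeq 0.6.1 and deposited bulk values as signal, counts normalized with DESeq2 size factors. All values came out within 0.01 of whole reads on dividing out each library's step, and these reads were used in the count tests. The deposited allelic ratio is a fraction (reads of X mus over all assigned reads), and the deposited single-cell values are raw counts per gene. Within groups, library pairs differed by 8.80 to 44.5 in chi-square per gene, so none was a copy. There were 4 columns of samples not described in the labels, not used here.

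Genes with a mean normalized count above 10 (16281) were fitted in 1 limma 3.58.1 model (R 4.3.3) over all 16 libraries on log2(normalized count + 1), with Benjamini-Hochberg adjustment and an FDR threshold of 0.001, after tests on simulated data. edgeR 4.0.16 and DESeq2 1.42.0 were run on recovered reads as alternatives. Gene names came from GENCODE vM21 (238 bulk genes had none). Allelic ratios were compared with exact two-sided permutation tests in scipy 1.17.1. Wells with fewer than 4000 genes or 10000 reads, or over 5% mitochondrial reads, were left out, and doublets were not called, since wells were sorted singly. Levels per kb divide by the exon length of the gene. Deviations of same-numbered XGFP- and XGFP+ PGCLC libraries from their group means correlated at 0.253, 0.135, 0.200 and 0.307, so the numbers pair those groups. Between EpiLCs and ESCs the values were weaker, 0.0409, 0.108, 0.110 and 0.0564, but each was the highest for its number. In the remaining pairs of groups they ran from -0.0105 to 0.160, and the same number was not always highest.

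All 9 members were named in every group, and from the lists the called genes with the largest changes, up to 3 a list, in EpiLCs against ESCs and XGFP- against XGFP+ PGCLCs. The members and lists were chosen with earlier results of these data known. For each member the 2 genes with the highest r were named.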

Additional observations from a re-analysis of the deposited data

Results flagged for a closer look

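Among 40 groups of 4 libraries, 5 had a library farther from the others than Dixon's 95% limit allows, where chance gives about 1 in 20. Setdb1 in EpiLCs was highest in replicate 3, with a gap of 0.930 of the group's range (6680 against 6471 to 6486), and in XGFP- PGCLCs again in replicate 3 (0.944, 7213 against 6849 to 6869). Suv39h2 in XGFP+ PGCLCs was lowest in replicate 2 (0.896, 1621 against 1700 to 1710), and in XGFP- PGCLCs highest in replicate 4 (0.870, 1878 against 1713 to 1734). The Suv39h1 allelic ratio in XGFP- PGCLCs was lowest in replicate 1 (0.899, 0.396 against 0.461 to 0.469). Setdb1 and Suv39h2 were called in no comparison between XGFP- and XGFP+ PGCLCs with or without these libraries.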

How the results depend on the processing

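The 26 member results called kept their direction under all 27 alternatives: 410 of 416 values without 1 library stayed called, and 263 of 286 under other settings. Requiring an absolute log2 fold change above 1 left 3, 2, 2, 1, 1 and 0 members in EpiLCs against ESCs, XGFP+ and XGFP- PGCLCs against EpiLCs, XGFP+ and XGFP- PGCLCs against ESCs, and XGFP- against XGFP+ PGCLCs, beside 25.8%, 30.4%, 34.9%, 24.8%, 33.5% and 11.2% of all genes. Without 1 library the counts in that order were 6 to 7, 6 to 7, 5, 1 to 5, 3 to 4 and 2, and XGFP+ PGCLCs against ESCs had 1 with these groups alone. Signs turned for uncalled values near 0: Kdm4b in EpiLCs against ESCs was 0.0096 with quantile normalization and -0.0577 to 0.0251 without 1 library, Ehmt2 there -0.0187 to 0.0727, Ehmt1 in XGFP+ PGCLCs against ESCs -0.0183 to 0.0452, and Kdm3a between the PGCLC groups -0.104 to 0.0251.

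With the replicate block over all 16 libraries no member call changed. With the block and the compared groups alone, Ehmt2 lost its calls in XGFP+ PGCLCs against EpiLCs (FDR 0.00184) and ESCs (0.00342), and Ehmt1 in XGFP- PGCLCs against ESCs (0.00126). Under sign flips of paired libraries, the Suv39h1 ratio differences of -0.154 (EpiLCs against ESCs), -0.0773 and -0.155 (XGFP+ and XGFP- PGCLCs against ESCs) and -0.0777 (XGFP- against XGFP+ PGCLCs) all had an adjusted p of 0.15, since 4 pairs allow no lower p than 0.125. Relative to the median of the X-linked genes, these became 0.0964, -0.0052, 0.294 and 0.299, and the differences of XGFP+ and XGFP- PGCLCs from EpiLCs became -0.102 and 0.197; by construction this subtracts the change of the other X-linked genes.

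In single cells, a 2-fold limit left 1 member each against XGFPlow and XGFPintermediate cells. In the lane with all 4 populations, 3 members passed against XGFPintermediate, 6 against XGFPlow and 7 against XGFP+ constitutive cells (44.2%, 47.5% and 48.4% of all genes), and the log2 ratios of Kdm4c against XGFPlow (-0.419) and Kdm3a against XGFPintermediate cells (-0.0285) turned; the cause was not tested. Allelic ratios came without read numbers, which limits what can be said of their precision.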

Other observations

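In single ESCs, an allelic ratio of Suv39h1 was given in 5 of 23 cells, and all 5 cells were at 1, with reads from X mus only (0 of 5 with both alleles, exact 95% interval 0 to 52.2%), whereas the 4 bulk ESC libraries had ratios of 0.574 to 0.644. Suv39h1 had 340 reads over the 24 single ESCs. Phf8 in the same cells had reads of both alleles in 4 of 8 cells (50%, 15.7 to 84.3%).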
